A study of Mus musculus with 6 samples.

Results

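The 36 genes described here code for nuclear receptors of the liver. They were chosen by gene symbol from a table of 55414 annotated genes, and all 36 were found. The clock receptors Nr1d1 and Nr1d2 were not among them. Nuclear receptors are transcription factors whose activity is set, in most members of the family, by a small fat-soluble ligand such as a fatty acid, bile acid, oxysterol, retinoid, thyroid hormone or steroid. Many bind DNA as a heterodimer with a retinoid X receptor, while orphan members work without a known ligand or through coactivators such as PGC-1alpha. In hepatocytes these factors set the transcription of genes for fatty acid oxidation, bile acid synthesis, drug metabolism and gluconeogenesis, and in fasting PPARalpha and the glucocorticoid receptor are known to be active.

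RNA from whole liver of 12-week-old male mice was sequenced in 3 groups of 2 libraries, each library a pool of RNA from 2 mice. The first group had a hepatocyte-specific deletion of Gapdh, the glycolytic enzyme glyceraldehyde-3-phosphate dehydrogenase (genotype GapAlb KO), and drank water with 5% serine. Mice of the same genotype on plain water made up the second group. Control mice labelled Gapfl on plain water were the third, and the 6 libraries include no control group on serine. Knockouts on serine thus differ from controls in both genotype and drink. All mice were fasted for 16 hours, so every value below is from fasted liver. The labels give the deletion as hepatocyte-specific and do not describe the driver of the recombinase further. Other liver cells are expected to keep the gene. P-values measure the spread between pools, not between single mice.

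The deleted gene was read at 20.0 and 23.5 FPKM in knockout livers on serine, at 23.8 and 17.0 FPKM in knockout livers on water and at 1091 and 1391 FPKM in controls. FPKM are fragments per kilobase of transcript, scaled to the mapped fragments of the library, and are the unit of the deposited table. Libraries held an implied 17300000 to 19300000 fragments. Hepatocyte markers were abundant in every library, with a summed level of 64794 to 68178 FPKM in knockouts on serine, 59971 to 71193 in knockouts on water and 71588 to 78120 in controls. Pools of 1 group correlated with a Pearson coefficient of 0.965 to 0.970 across the tested genes on the log2 scale. The members' median difference between the pools of a group was 0.24, 0.28 and 0.21 on the log2 scale in knockouts on serine, knockouts on water and controls, where all tested genes had 0.23, 0.21 and 0.21.

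The receptors covered a wide range of levels. Their summed level was 971 and 943 FPKM in knockouts on serine, 933 and 936 FPKM in knockouts on water, and 884 and 827 FPKM in controls, which is 0.0951% to 0.121% of all FPKM in a library. Hnf4a, the hepatocyte master regulator HNF4alpha, was the most abundant over all 6 libraries, ranked 580 among all genes by mean FPKM. Nr1i3, which codes for the drug sensor CAR, ranked 610, Rxra 846 and Ppara 882. All 36 are protein-coding genes and lie on 17 chromosomes, and the deposited table's own families place 15 with the thyroid hormone receptors, 10 with RXR, 5 with the estrogen receptors, 3 with NR4A and 3 elsewhere. At the other end, Vdr, the vitamin D receptor, reached at most 0.03 FPKM in any library, and Hnf4g, the HNF4 gene best known from the gut, at most 0.07 FPKM.

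In knockouts on serine 4 members averaged 100 FPKM or more, 9 lay between 10 and 100, 18 between 1 and 10, and 5 below 1. The same classes held 3, 10, 18 and 5 members in knockouts on water, and 3, 11, 15 and 7 in controls. When the members were ranked by mean level within a group, 22 of the 35 pairs of neighbours overlapped between libraries in knockouts on serine. In knockouts on water 20 did, and in controls also 20, so much of the fine order was within the spread of the pools.

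**Figure D1:**
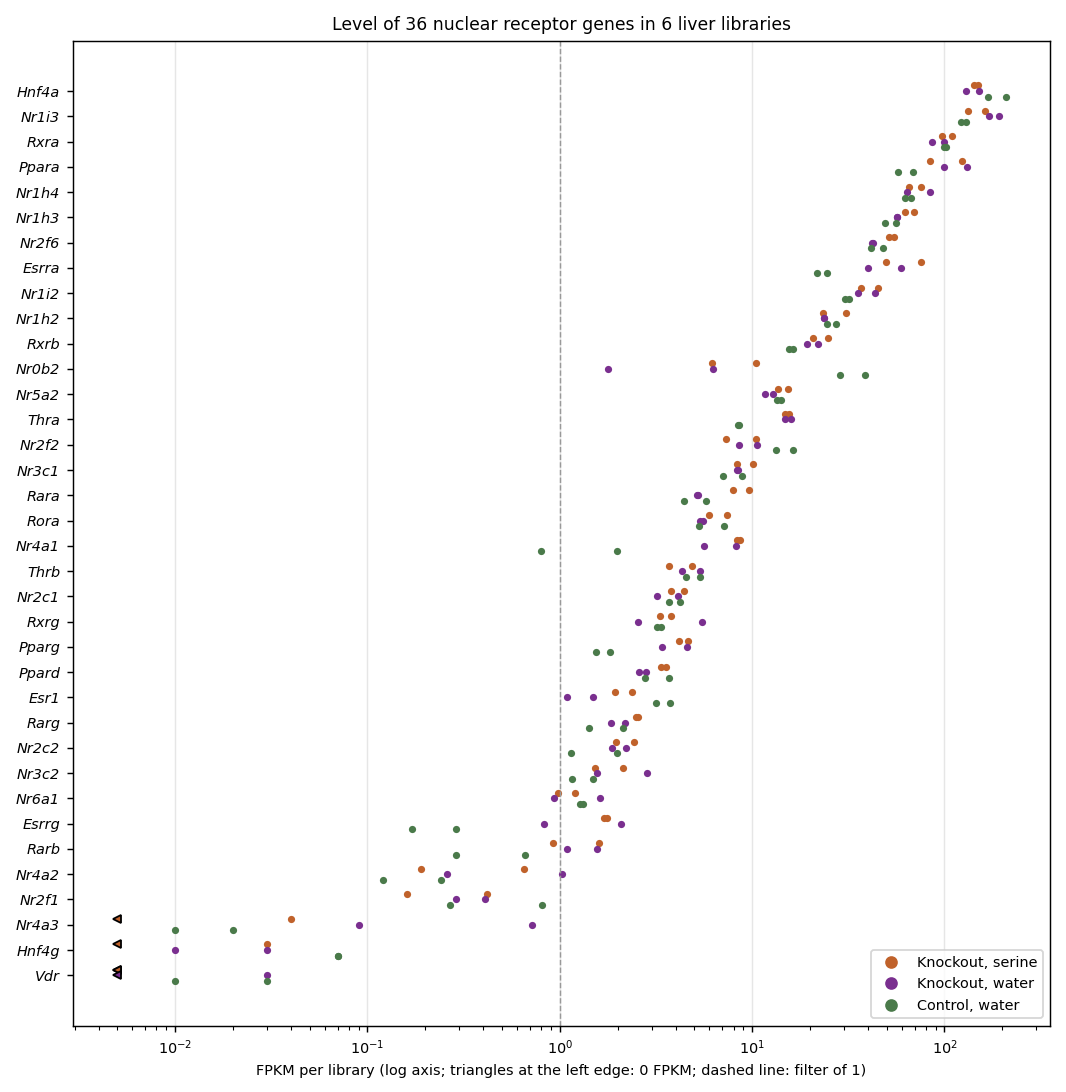
FPKM of each of the 36 nuclear receptor genes (rows, ordered by mean level) on a log10 axis, with 1 point per pool of 2 mice, in orange for knockouts on serine, purple for knockouts on water and green for controls on water; triangles at the left edge are values of 0 and the dashed line is the filter of 1 FPKM. Nr4a1, Esrra and Pparg have their control points to the left of the knockout points, and Nr0b2 has them to the right.

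The order changed at a few places. Controls had Hnf4a first at 188 ± 28.7 FPKM and Nr1i3 next at 126 ± 5.49 FPKM (SD, n = 2). In knockouts on serine Nr1i3 averaged 148 ± 20.8 FPKM and Hnf4a 146 ± 5.23 FPKM (SD, n = 2), which overlapped, and in knockouts on water Nr1i3 was at 181 ± 15.5 FPKM and Hnf4a at 140 ± 16.4 FPKM (SD, n = 2), without overlap. Within a library, the ratio of the Nr1i3 level to the Hnf4a level was 1.14 and 0.886 in knockouts on serine, 1.12 and 1.49 in knockouts on water, and 0.623 and 0.728 in controls. All knockout pools were above both control pools in this ratio, which was chosen after its values were seen. Nr0b2 stood 8th in controls, and Esrra 11th.

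Changes were tested for the 31 members with a mean of at least 1 FPKM over the libraries, within a fit of all 11134 such genes (limma on log2(FPKM + 0.5), with Benjamini-Hochberg adjustment over all genes and a threshold of 0.05). Fold changes below are log2 differences on that scale, which understates the change of low genes. In knockouts on water against controls 0 of the 31 members passed, where 1.21% of all tested genes did. At an unadjusted p under 0.05 there were 12 of 31, which is 8 higher and 4 lower, against a background of 21.6% of all genes (14.0% higher and 7.63% lower). Rarb and Esrrg, among the 8 higher, averaged 0.475 and 0.230 FPKM in controls. They reached the filter only through the knockout groups, so their entry into the test depended on the groups compared. Groups did not overlap for 18 members, beside a background of 55.4%. The median log2 difference of the members was 0.10, against 0.08 for all genes, and their median absolute difference 0.33, against 0.27.

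In knockouts on serine against the same control libraries, 1 of the 31 members passed, beside a background of 1.18% of all genes, 0.853% higher and 0.323% lower. That gene was Nr4a1, the immediate early receptor Nur77. At an unadjusted p under 0.05 there were 11 members, 9 higher and 2 lower, where the background was 25.7%, with 19.8% higher and 5.95% lower. Esrrg, which reached the filter only through the knockout groups, was among the 9 higher. The median log2 difference was 0.22 for the members and 0.16 for all genes. Because both comparisons use the same control pools, the 2 sets of values are given side by side and are not independent. Setting the mean of both knockout groups against control, a comparison chosen after the data were seen, called 5 of the 31, where 5.85% of all genes were called. They were Nr4a1 (2.17, adjusted p = 0.0256), Thra (0.81, 0.0280), Pparg (1.10, 0.0355), Nr0b2 (-2.54, 0.0355) and Esrra (1.23, 0.0403).

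**Figure D2:**
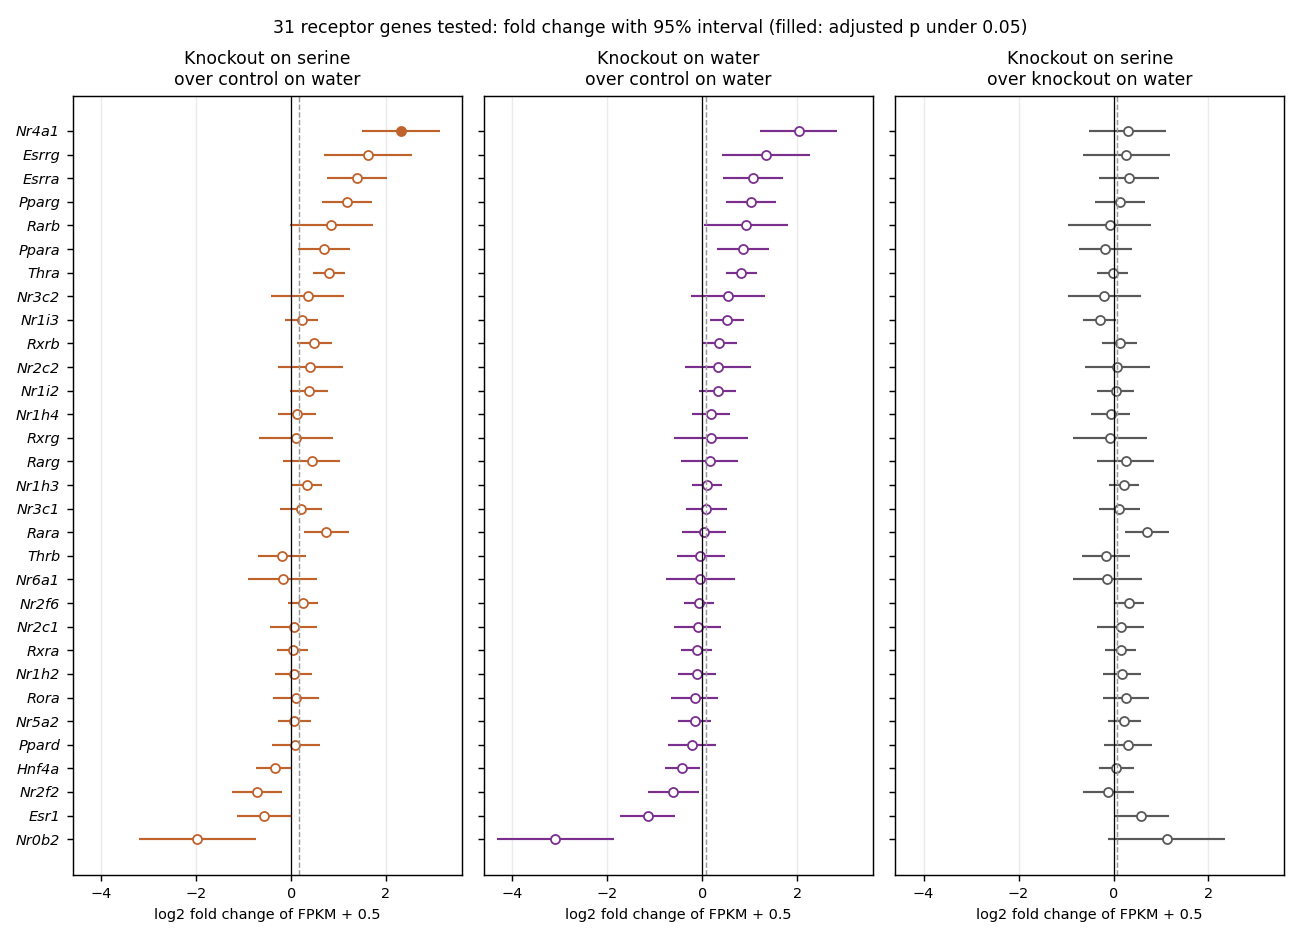
Log2 fold changes of FPKM + 0.5 with 95% intervals from limma for the 31 tested nuclear receptor genes (rows), in 3 panels for knockout on serine over control, knockout on water over control and knockout on serine over knockout on water; the dashed line is the median of all genes and a filled point has an adjusted p under 0.05. Nr4a1 lies farthest above 0 and Nr0b2 farthest below 0 in both comparisons with control, and only Nr4a1 in knockouts on serine is filled.

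Nr4a1 (GRCm39 chr15:101152150-101172676, plus strand) is quickly induced by hormones, cyclic AMP and stress, and in liver it is known to promote genes of gluconeogenesis. It had 8.69 and 8.30 FPKM in knockouts on serine, 5.63 and 8.26 FPKM in knockouts on water, and 0.80 and 1.99 FPKM in controls. All 4 knockout pools were above both control pools. Nr4a1 rose in knockouts on serine by a log2 difference of 2.32 (SE 0.34, 95% interval 1.5 to 3.14, adjusted p = 0.0454). In knockouts on water the value was 2.03 (SE 0.34, adjusted p = 0.0546) and did not pass. The call in knockouts on serine was lost under some other settings, such as median-of-ratios scaling, under which 0.324% of all genes were called. The log2 difference on serine without the first or the second control pool was 1.85 and 2.79.

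The 250 bases before the Nr4a1 start are printed because its promoter is known for repeated elements of the cyclic AMP response type. In capitals are the matches to TGCGTCA on either strand, a motif chosen with that knowledge (RefSeq sequence, build GRCm38.p6, chr15:101266596-101266845, plus strand).

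Nr4a1: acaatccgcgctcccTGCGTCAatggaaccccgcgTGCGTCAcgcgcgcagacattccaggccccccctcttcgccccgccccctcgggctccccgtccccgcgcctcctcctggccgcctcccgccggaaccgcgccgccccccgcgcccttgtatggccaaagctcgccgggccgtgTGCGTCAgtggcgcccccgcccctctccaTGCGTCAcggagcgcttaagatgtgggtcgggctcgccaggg

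The window held 4 matches, at -235, -215, -71 and -42 from the start. Of 32851 RefSeq start windows of the same length, 574 (1.75%) held at least 1 match, 10 held 2 or more, and 1 held 3 or more, which is that of Nr4a1. Its GC content was 74.4%, where the median of all windows was 52.4% and that of the 52 windows of 33 members 60.4%. Thra, Hnf4g and Nr3c1 had no entry.

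The related genes Nr4a2 and Nr4a3, which share the induction by hormones and stress, were below the filter. Nr4a2 was at 0.65 and 0.19 FPKM in knockouts on serine, 0.26 and 1.03 FPKM in knockouts on water, and 0.12 and 0.24 FPKM in controls. Nr4a3 reached 0.72 FPKM in the second pool of knockouts on water and at most 0.09 FPKM in any other library. That pool accounted for 74 of its 91 implied fragments, so the level rests on 1 library. Other immediate early genes, from a list of 21, did not pass in either comparison with control (0 of 16 tested). Egr1, a zinc finger factor of this class, was at 3.24 and 3.31 FPKM in knockouts on serine, 9.55 and 2.35 FPKM in knockouts on water and 20.4 and 14.4 FPKM in controls. Its log2 difference was -2.23 on serine (adjusted p = 0.0780) and -1.72 on water (adjusted p = 0.145). On water 10 of the 16 had a positive log2 difference, 6 were higher and 2 lower at an unadjusted p under 0.05, and the median was 0.31, beside 0.08 for all genes. For all genes, 6570 of 11134 were positive, with 14.0% higher and 7.63% lower at that p. Klf2 had 0.91 and Ier2 -0.58 in knockouts on water (adjusted p = 0.163 and 0.165).

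Among the receptors for bile acids and sterols, Nr0b2 had lower values in the knockouts, while the levels of its partners were closer to control. Nr0b2 (GRCm39 chr4:133280687-133283847, plus strand) codes for SHP, an orphan receptor without a DNA-binding domain that is induced by the bile acid receptor FXR and represses other receptors. It was read at 10.5 and 6.16 FPKM in knockouts on serine, 1.79 and 6.26 FPKM in knockouts on water, and 38.7 and 28.6 FPKM in controls. The knockout pools were all below both control pools, and the knockout pools on water differed from each other by a log2 difference of 1.56, the widest of any tested member in that group. In knockouts on water the log2 difference from control was -3.10 (SE 0.51, 95% interval -4.33 to -1.87, adjusted p = 0.0523). In knockouts on serine it was -1.98 (SE 0.51, adjusted p = 0.0855). Neither passed the threshold. Without the first water pool of the knockouts the value was -2.32, and without the second it was -3.88.

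The Nr0b2 start window is printed for comparison with that of Nr4a1, since Nr0b2 is a known target of Nr5a2 and of the ERR receptors, which bind TCAAGG. In capitals are TCAAGG and CACGTG on either strand and TATAAA on the gene's strand (RefSeq sequence, build GRCm38.p6, chr4:133553126-133553375, plus strand).

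Nr0b2: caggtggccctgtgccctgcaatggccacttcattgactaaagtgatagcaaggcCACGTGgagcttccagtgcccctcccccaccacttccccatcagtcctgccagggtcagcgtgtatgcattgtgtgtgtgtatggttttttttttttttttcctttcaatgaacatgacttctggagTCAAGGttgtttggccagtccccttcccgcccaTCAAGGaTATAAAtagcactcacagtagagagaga

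It held TCAAGG at -68 and -35, TATAAA at -28 and CACGTG at -195, without overlap among them. Of all 32851 windows 12.5% held TCAAGG at least once and 0.922% at least 2 times, 7.59% held TATAAA and CACGTG was in 6.02%. The general receptor half-site, AGGTCA, was in 14.0% of all windows and in 9 of the 52 windows of members (17.3%). These matches describe the letters and not binding.

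The FXR gene Nr1h4, whose protein senses bile acids and induces Nr0b2, was at 65.7 and 75.3 FPKM in knockouts on serine, 84.3 and 64.2 FPKM in knockouts on water, and 67.0 and 62.3 FPKM in controls. These groups overlapped, and its log2 difference on water was 0.19 with a 95% interval of -0.22 to 0.59. The ratio of the Nr0b2 level to the Nr1h4 level within a library was 0.160 and 0.0818 on serine, 0.0212 and 0.0975 in knockouts on water, and 0.578 and 0.460 in controls. Nr5a2 (LRH-1), an orphan receptor that promotes bile acid synthesis genes, stayed between 11.7 and 15.4 FPKM in every library. The LXR genes code for oxysterol receptors. Nr1h2 (LXRbeta) lay between 23.3 and 30.7 FPKM. Nr1h3 (LXRalpha) was at 62.6 and 69.6 FPKM in knockouts on serine, 56.5 and 56.4 FPKM in knockouts on water, and 49.2 and 56.1 FPKM in controls. Its log2 difference on serine against control was 0.33 (SE 0.13, adjusted p = 0.185).

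Of 15 tested FXR and SHP target genes, 0 were called higher and 1 lower in each comparison with control. Among all genes, 0.404% were called lower on water and 0.323% on serine. The list's median log2 difference was -0.15 on water, against 0.08 for all genes. The gene called was Fgg, the fibrinogen gamma chain. It was read at 913 and 656 FPKM in knockouts on serine, 929 and 1033 FPKM in knockouts on water, and 2285 and 2230 FPKM in controls. Fgg fell by a log2 difference of -1.54 on serine (adjusted p = 0.0370) and of -1.20 on water (adjusted p = 0.0422). Abcb11, the bile salt export pump, was at 51.1 and 20.8 FPKM in knockouts on serine, 20.0 and 30.4 FPKM in knockouts on water and 80.1 and 71.3 FPKM in controls. Its log2 difference on water was -1.60 (adjusted p = 0.107). Apoc2 and Cyp8b1 had 0.43 and 0.29 on water (adjusted p = 0.208 and 0.329). No LXR target of 15 tested passed. Among them Mlxipl, the glucose-responsive factor ChREBP, was at -1.29, Lpcat3 at 0.54 and Fasn at 0.74 in knockouts on water (adjusted p = 0.118, 0.119 and 0.202).

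**Figure D3:**
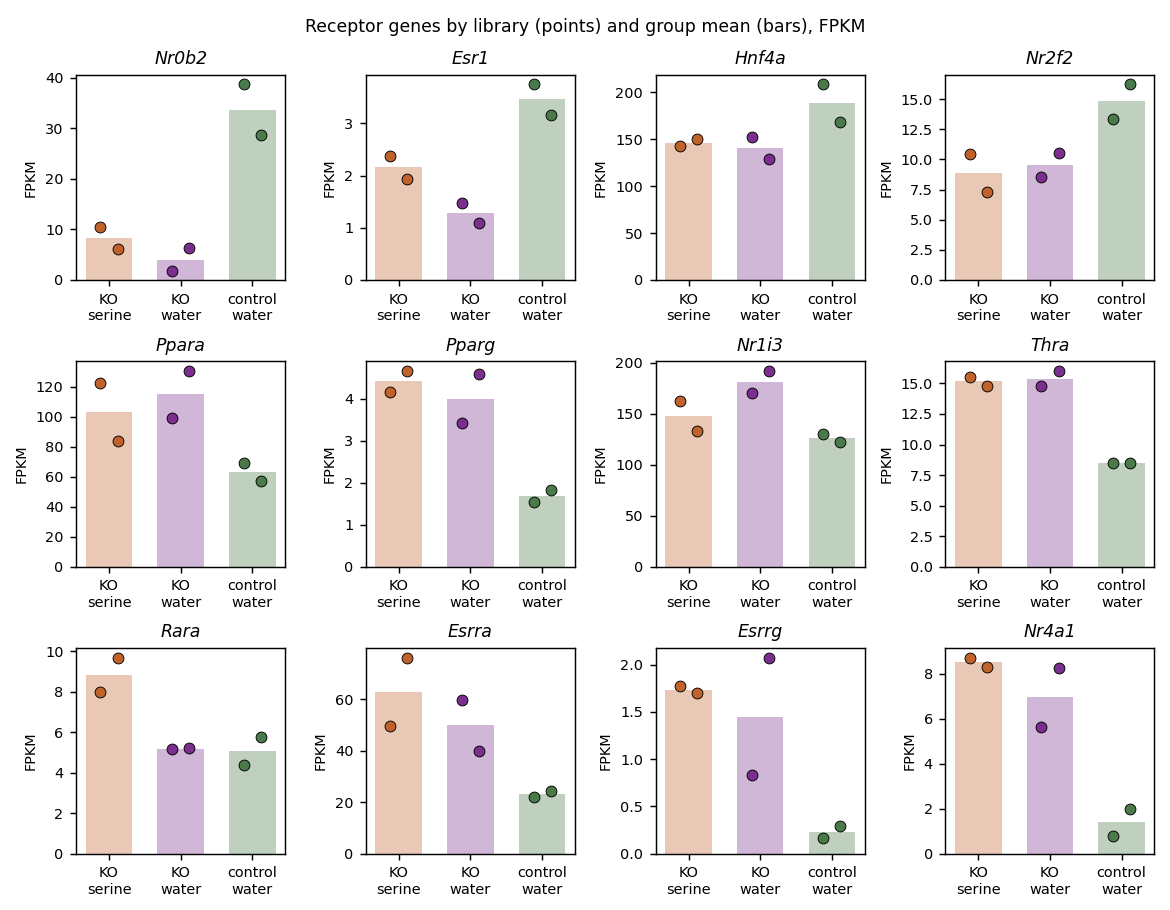
FPKM of 12 nuclear receptor genes in each library (points) with group means (bars), with knockout on serine at the left, knockout on water in the middle and control on water at the right of each panel. Nr0b2 in controls (38.7 and 28.6 FPKM) lies above all knockout pools, and Nr4a1 in controls (0.80 and 1.99 FPKM) lies below all of them.

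None of the 3 PPAR genes passed, and they differed in their values. Ppara (GRCm39 chr15:85619184-85687020), the fatty acid sensor that drives fasting fat oxidation, was at 123 and 83.9 FPKM in knockouts on serine, 99.4 and 130 FPKM in knockouts on water, and 68.8 and 57.0 FPKM in controls. All knockout pools were above both control pools. Its log2 difference was 0.69 on serine (SE 0.23, adjusted p = 0.128) and 0.86 on water (SE 0.23, adjusted p = 0.113). Pparg (GRCm39 chr6:115337912-115467360), the lipid storage receptor of adipocytes, which is low in normal liver, was at 4.16 and 4.65 FPKM in knockouts on serine, 3.41 and 4.59 FPKM in knockouts on water, and 1.54 and 1.83 FPKM in controls. Its pools also did not overlap with control. The log2 difference of Pparg was 1.17 on serine (SE 0.22, adjusted p = 0.0547) and 1.03 on water (SE 0.22, adjusted p = 0.0760). Ppard, the widely expressed PPARdelta gene, overlapped with control in both comparisons, at 3.34 and 3.55 FPKM in knockouts on serine, 2.80 and 2.58 FPKM in knockouts on water and 3.69 and 2.77 FPKM in controls.

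Of 35 PPAR target genes tested, 8 rose and 0 fell in knockouts on water, where 0.808% of all genes were called higher. The median log2 difference of the list was 0.21, beside 0.08 for all genes. Among the 8 were Cpt1b (2.94, adjusted p = 0.00652), Pdk4 (3.24), Cd36 (2.29), Slc27a1 (1.61), Pex11a (1.32), Cidec (1.30) and Ucp2 (0.87), as log2 differences, with adjusted p from 0.0306 to 0.0432 for those after Cpt1b. They include Cpt1b of mitochondrial fatty acid entry, the fatty acid carriers Cd36 and Slc27a1, and the lipid droplet gene Cidec. Pdk4, which restrains pyruvate oxidation, was at 68.5 and 60.4 FPKM in knockouts on serine, 119.8 and 76.7 FPKM in knockouts on water and 16.5 and 5.63 FPKM in controls. On serine 3 of the 35 rose against control, Cd36 (2.50), Cpt1b (2.51) and Slc27a1 (1.33), where 0.853% of all genes were called higher. The list's median on serine was 0.25, beside 0.16. The count of 8 on water was 6 with median-of-ratios scaling and 0 with no filter. Under these settings 0.980% and 0.00909% of all genes were called. Slc25a20 (0.61), Plin2 (0.80) and Plin5 (0.53) did not pass in knockouts on water (adjusted p = 0.0750, 0.0750 and 0.110).

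Esrra and Esrrg code for estrogen-related receptors, orphan receptors that switch on mitochondrial genes together with PGC-1alpha. Esrra (GRCm39 chr19:6888345-6899208) was at 49.7 and 75.9 FPKM in knockouts on serine, 59.6 and 40.0 FPKM in knockouts on water, and 21.8 and 24.5 FPKM in controls. All knockout pools were above both control pools. The log2 difference of Esrra was 1.39 on serine (SE 0.26, adjusted p = 0.0547) and 1.06 on water (SE 0.26, adjusted p = 0.101). Esrrg was low, at 1.77 and 1.70 FPKM in knockouts on serine, 0.83 and 2.07 FPKM in knockouts on water, and 0.17 and 0.29 FPKM in controls. Its log2 difference was 1.62 on serine (SE 0.39, adjusted p = 0.0745) and 1.35 on water (SE 0.39, adjusted p = 0.125). Rora, a lipid-regulating ROR receptor, overlapped with control in both comparisons and stayed between 5.32 and 7.42 FPKM, with both serine pools above both knockout pools on water.

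Ppargc1a, the gene of PGC-1alpha, passed in both comparisons with control. It was read at 7.86 and 11.2 FPKM in knockouts on serine, 9.81 and 9.54 FPKM in knockouts on water, and 3.43 and 2.47 FPKM in controls. Ppargc1a rose by a log2 difference of 1.54 on serine (adjusted p = 0.0454) and 1.57 on water (adjusted p = 0.0393). It was the 1 gene called of 27 tested receptor coregulators, whose median was 0.33 on serine and 0.23 on water. Beside this, 0.853% of all genes were called higher on serine and 0.808% on water. Prmt1 (0.58), Lpin2 (0.86) and Ncoa4 (0.78) did not pass on water, with adjusted p of 0.0825, 0.103 and 0.121.

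Of 22 tested ERR and PGC-1 target genes, 5 rose in knockouts on serine and 4 in knockouts on water, and 0 fell. The background called higher was 0.853% of all genes on serine and 0.808% on water. The median log2 difference of the list was 0.58 on serine and 0.47 on water, where all genes had 0.16 and 0.08. On serine they included Cycs (1.25), Cs (1.16), Uqcrc1 (0.81) and Mdh2 (0.76). On water they included Cycs (1.15), Cs (1.03) and Pdk4 (3.24), the last shared with the PPAR list. Cycs, the cytochrome c gene, was at 80.6 and 86.2 FPKM in knockouts on serine, 70.6 and 84.8 FPKM in knockouts on water, and 35.0 and 34.3 FPKM in controls. The count of 4 on water was 3 with median-of-ratios scaling and 0 with no filter, where 0.980% and 0.00909% of all genes were called. Sdhb (0.59), Idh3a (1.59) and Atp5a1 (0.52) did not pass on water, with adjusted p of 0.0760, 0.0876 and 0.0953.

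**Figure D4:**
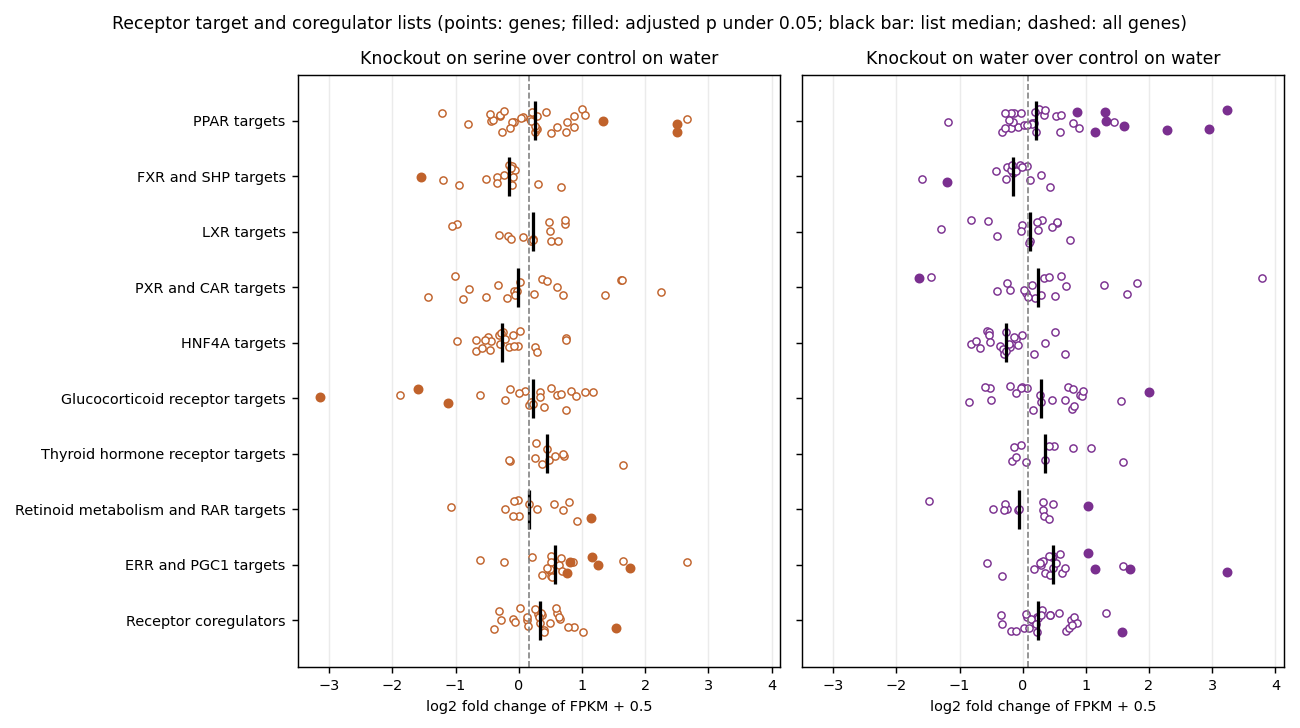
Log2 fold changes of FPKM + 0.5 for the tested genes (points) of receptor target and coregulator lists (rows), for knockout on serine over control at the left and knockout on water over control at the right; filled points have an adjusted p under 0.05, black bars are list medians and the dashed line is the median of all genes. ERR and PGC-1 targets have medians of 0.58 on serine and 0.47 on water, and HNF4A targets -0.27 in both.

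Neither drug sensor gene passed. CAR (Nr1i3, GRCm39 chr1:171041539-171048270) was at 162 and 133 FPKM in knockouts on serine, 169.9 and 192 FPKM in knockouts on water, and 130 and 122 FPKM in controls. The log2 difference on water was 0.51 (SE 0.15, adjusted p = 0.123). Nr1i2, the pregnane X receptor PXR, was at 44.9 and 36.9 FPKM in knockouts on serine, 35.4 and 43.7 FPKM in knockouts on water and 31.9 and 30.6 FPKM in controls. It did not overlap with control in either comparison, with an adjusted p of 0.210 on serine and 0.306 on water. Vdr, of the same subfamily, was carried by about 7 implied fragments over all 6 libraries.

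Of 20 tested PXR and CAR target genes, 0 rose and 1 fell in knockouts on water, and 0 passed on serine. The background was 0.404% of all genes called lower on water and 1.18% called on serine. The gene that fell was Sult2a8, a sulfotransferase. It was at 159 and 107.6 FPKM in knockouts on serine, 88.1 and 80.8 FPKM in knockouts on water and 282 and 246 FPKM in controls. On water it had a log2 difference of -1.64 (adjusted p = 0.0306), and on serine of -1.01 (adjusted p = 0.0601). Cyp2b10, the standard CAR-induced cytochrome, was at 5.92 and 18.2 FPKM in knockouts on serine, 52.4 and 18.9 FPKM in knockouts on water, and 1.22 and 2.60 FPKM in controls. All knockout pools were above control, with a log2 difference of 2.25 on serine (adjusted p = 0.102) and 3.79 on water (adjusted p = 0.0552). Cyp2a5 had 1.29 and Cyp3a25 -1.46 on water (adjusted p = 0.0636 and 0.0639), so members of the list lay on both sides of 0, and the list's median was -0.01 on serine and 0.24 on water.

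No HNF4 or RXR gene passed. Hnf4a (GRCm39 chr2:163348728-163414830) was at 143 and 150 FPKM in knockouts on serine, 152 and 129 FPKM in knockouts on water, and 209 and 168 FPKM in controls. No knockout pool reached the lower control pool. Its log2 difference was -0.35 on serine (adjusted p = 0.215) and -0.42 on water (SE 0.16, adjusted p = 0.190). Hnf4aos, annotated on the opposite strand across part of Hnf4a, was at 15.7 and 10.8 FPKM in knockouts on serine, 14.9 and 17.1 FPKM in knockouts on water, and 1.05 and 4.52 FPKM in controls. The strand used in counting is not given in the sources used, so reads from overlapping genes on opposite strands cannot be told apart. The same holds for Esrra with Trmt112, Nr1i3 with Tomm40l, Rarb with Top2b, Nr2c2 with Mrps25, Nr2f6 with Ocel1 and Thra with Nr1d1. Top2b was at 6.54 and 4.48 FPKM in knockouts on serine, 6.63 and 6.99 in knockouts on water, and 8.30 and 7.77 in controls. Of 22 tested HNF4A targets 0 passed, and the median log2 difference was -0.27 in both comparisons, below that of all genes. Trf (-0.82), Hpd (0.67) and Serpina1a (-0.52) had the smallest p on water, with adjusted p of 0.0892, 0.0980 and 0.101. Trf and Serpina1a are also on the list of hepatocyte markers, of which 0 of 10 passed in either comparison. In whole tissue, fewer cells of a type and less RNA per cell cannot be told apart.

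Rxra, the main dimer partner in liver, was at 96.7 and 109 FPKM in knockouts on serine, 99.3 and 85.6 FPKM in knockouts on water, and 99.0 and 102 FPKM in controls. The groups overlapped, and its log2 difference on water was -0.12 with a 95% interval of -0.45 to 0.20. Rxrb was at 20.6 and 24.7 FPKM in knockouts on serine, 22.0 and 19.2 FPKM in knockouts on water and 15.6 and 16.2 FPKM in controls. Its log2 difference was 0.49 on serine (SE 0.15, adjusted p = 0.115) and 0.36 on water (adjusted p = 0.241). Rxrg, the remaining partner, was lower and variable, between 2.56 and 5.49 FPKM, with both extremes in knockouts on water. Within a library, the ratio of Ppara to Rxra was 1.27 and 0.768 on serine, 1.00 and 1.52 in knockouts on water, and 0.695 and 0.561 in controls.

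Of the thyroid hormone receptor genes, Thra had some of the smallest p-values of any member, and Thrb overlapped between groups. Thra (GRCm39 chr11:98631464-98659832) was at 15.5 and 14.8 FPKM in knockouts on serine, 14.8 and 16.0 FPKM in knockouts on water, and 8.53 and 8.46 FPKM in controls. The pools of each group were close together and did not overlap with control. The log2 difference of Thra was 0.80 on serine (SE 0.14, adjusted p = 0.0510) and 0.82 on water (SE 0.14, adjusted p = 0.0532), in both just short of passing. Thrb, the isoform gene known for hormone action in liver, ranged from 3.71 to 5.34 FPKM. The ratio of Thra to Thrb within a library was 3.20 and 3.99 on serine, 3.44 and 3.0 in knockouts on water, and 1.60 and 1.86 in controls. Nr1d1 overlaps the end of Thra on the other strand (GRCm39 chr11:98658758-98666159). Its level was 34.1 and 22.0 FPKM in knockouts on serine, 18.0 and 17.6 FPKM in knockouts on water and 22.0 and 31.9 FPKM in controls. The part of Nr1d1 reads in the Thra value was not tested. None of 11 tested thyroid hormone targets passed, with a median of 0.45 on serine and 0.35 on water. Idh3a (1.59), Gpd2 (0.80) and Serpina7 (1.08) had the smallest p on water, with adjusted p of 0.0876, 0.197 and 0.258.

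The retinoic acid receptors differed among themselves. Rara was at 7.98 and 9.66 FPKM in knockouts on serine, 5.15 and 5.22 FPKM in knockouts on water, and 4.40 and 5.77 FPKM in controls. It was higher in both serine pools than in any other library, with a log2 difference from control of 0.74 (SE 0.19, adjusted p = 0.0864). Rarb, which in liver is known from stellate cells, was at 0.92 and 1.59 FPKM in knockouts on serine, 1.09 and 1.57 FPKM in knockouts on water, and 0.66 and 0.29 FPKM in controls. Its log2 difference on water was 0.92 (SE 0.37, adjusted p = 0.213). The summed stellate cell markers were at 125 and 104 FPKM in knockouts on serine, 82.6 and 103 FPKM in knockouts on water and 92.8 and 69.0 FPKM in controls, and their part in the Rarb value was not tested. Rarg was between 1.42 and 2.55 FPKM throughout. Of 13 tested genes of retinoid metabolism and RAR action, Rdh16, a retinol dehydrogenase, rose on serine by 1.14 (adjusted p = 0.0454) and on water by 1.04 (adjusted p = 0.0482). It was the 1 gene of that list called in each comparison, where 0.853% of all genes were called higher on serine and 0.808% on water. On water the list's count was 0 with median-of-ratios scaling, where 0.980% of all genes were called. Dhrs3 (-1.48), Stra6l (-0.46) and Tgm2 (0.33) did not pass on water, with adjusted p of 0.0958, 0.158 and 0.256.

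None of the 3 steroid receptor genes passed. Esr1, the estrogen receptor alpha gene, was at 2.38 and 1.94 FPKM in knockouts on serine, 1.48 and 1.09 FPKM in knockouts on water, and 3.75 and 3.17 FPKM in controls. No knockout pool reached control. The log2 difference was -0.58 on serine (SE 0.24, adjusted p = 0.196) and -1.15 on water (SE 0.24, adjusted p = 0.0742). Nr3c1, the glucocorticoid receptor, ranged from 7.02 to 10.1 FPKM, and its log2 difference on water was 0.08 with a 95% interval of -0.35 to 0.51. Nr3c2, the mineralocorticoid receptor, was between 1.16 and 2.84 FPKM.

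Glucocorticoid receptor target genes were called in both directions. Of 23 tested, 1 rose and 0 fell on water, and 0 rose and 3 fell on serine. Among all genes, 0.808% were called higher and 0.404% lower on water, and 0.853% higher and 0.323% lower on serine. The list's median log2 difference was 0.28 on water and 0.22 on serine, where all genes had 0.08 and 0.16. The call on water depended on the setting. With the 4 compared libraries alone 0 rose and 1 fell, the gene called being Tsc22d3 in place of Igfbp1, beside 1.89% of all genes called. The count was 0 with median-of-ratios scaling or with no filter, where 0.980% and 0.00909% of all genes were called. On serine 0 were called with no filter or with the 4 compared libraries alone, where 0.0136% and 0.0359% of all genes were. On water Igfbp1, an insulin-repressed binding protein, was at 1308 and 635 FPKM, against 242 and 215 FPKM in controls (log2 difference 1.99, adjusted p = 0.0482). Pck1 (0.95), Per1 (0.94) and Tsc22d3 (-0.86) did not pass on water, with adjusted p of 0.0602, 0.0733 and 0.0750. The 3 genes that fell on serine were Mt2 (-3.14), Fkbp5 (-1.59) and Cdkn1a (-1.12), with adjusted p of 0.0350, 0.0485 and 0.0370. Mt2, a metallothionein, was at 38.1 and 69.2 FPKM in knockouts on serine, 247 and 368 FPKM in knockouts on water, and 383 and 546 FPKM in controls.

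The COUP and testicular receptors are orphan regulators. Nr2f2 (COUP-TFII), known from venous endothelium and stellate cells as well as hepatocytes, was at 10.5 and 7.31 FPKM in knockouts on serine, 8.50 and 10.6 FPKM in knockouts on water, and 13.4 and 16.2 FPKM in controls. All knockout pools were below control. Its log2 difference was -0.72 on serine (SE 0.22, adjusted p = 0.114) and -0.61 on water (SE 0.22, adjusted p = 0.183). Sinusoidal endothelial markers summed to 145 and 162 FPKM on serine, 140 and 149 FPKM in knockouts on water and 149 and 144 FPKM in controls, with 0 of 10 called. Their part and that of stellate cells in the Nr2f2 value were not tested. Nr2f6, the most abundant COUP gene here, ranged from 41.4 to 54.6 FPKM. Nr2c1 lay between 3.19 and 4.41 FPKM, Nr2c2 between 1.14 and 2.42 FPKM and Nr6a1, the germ cell nuclear factor, between 0.93 and 1.62 FPKM. Nr2f1 was under the filter, at most 0.81 FPKM.

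Markers of other cell types were examined for the whole tissue. Of cholangiocyte markers 2 of 8 reached the filter, and of lymphocyte and neutrophil markers 3 of 12. Summed cholangiocyte markers were at 20.8 and 11.2 FPKM on serine, 9.25 and 14.0 FPKM in knockouts on water, and 17.2 and 23.2 FPKM in controls. Among them Sox9 fell on serine by a log2 difference of -1.85 (adjusted p = 0.0485), where 0.323% of all genes were called lower. Sox9 was at 0.39 and 0.35 FPKM on serine, 0.55 and 0.66 FPKM in knockouts on water, and 3.0 and 2.32 FPKM in controls. It reached the filter of 1 FPKM only through the controls. The other tested marker, Spp1, had a log2 difference of -0.18 on serine (adjusted p = 0.801). Kupffer cell and macrophage markers summed to 172 and 176 FPKM on serine, 173 and 143 FPKM in knockouts on water and 177 and 150 FPKM in controls, with 0 of 12 called.

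Serine was compared with plain water within the knockout. No member passed, and no gene did either (0 of 11134, which is 0%). At an unadjusted p under 0.05 there were 3 of 31 members, all higher on serine, where 7.23% of all genes were below that p and 5.19% also higher. They were Rara (log2 difference 0.71, SE 0.19, adjusted p = 0.643), Nr2f6 (0.32, SE 0.13, adjusted p = 0.683) and Esr1 (0.58, SE 0.24, adjusted p = 0.683). Nr2f6 was at 51.2 and 54.6 FPKM in knockouts on serine, 41.8 and 42.7 FPKM in knockouts on water, and 41.4 and 48.1 FPKM in controls. For Nr0b2 the 95% interval of the serine difference ran from -0.11 to 2.35 around 1.12, and for Nr4a1 from -0.52 to 1.11 around 0.30. The intervals for Ppara (-0.72 to 0.39), Esrra (-0.30 to 0.96) and Thra (-0.35 to 0.31) included 0 as well. These widths do not show that the groups were alike. In none of the gene lists was a gene called for serine.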

How the data were processed

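The authors deposited gene-level FPKM values (fragments per kilobase, scaled to mapped fragments) for 6 libraries, and these were used as given. Base calling with bcl2fastq, alignment with HISAT2 2.0.5 and the genome GRCm39 are named in the submitters' processing notes. The FPKM program, annotation release and strand setting were not given in the sources used here. Depth was inferred from single-exon genes of 500 to 1500 bases with values above 0 and below 6 multiples of 1 fragment. For each library a fragment step and a length offset were chosen that gave the largest excess of whole multiples over chance in these genes. At that choice 84.2% to 88.6% were whole multiples (tolerance 0.03), where chance at a fixed step gives 17.3% to 19.0%. That chance value does not allow for the search.

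Genes with a mean FPKM of at least 1 were tested, 11134 in all. To log2(FPKM + 0.5) limma fitted 1 mean per group, over all 6 libraries (limma 3.58.1, R 4.3.3, eBayes with trend), with 3 residual and 3.46 prior degrees of freedom, two-sided tests and Benjamini-Hochberg adjustment over all genes at 0.05. No count model was fitted to FPKM.

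Members, gene lists and motifs were chosen with earlier results of these data known. Members with an unadjusted p under 0.05 in any comparison got values in every library, and of each list the genes that passed and up to 3 with the smallest p on water were named, except a few genes that are not reported here. Lists were described by counts and medians, without set tests. Promoter windows came from RefSeq (GRCm38.p6) and gene coordinates from the deposited table (GRCm39). Alternatives changed the pseudocount, filter, scaling, variance trend, libraries used and replicate block.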

Additional observations from a re-analysis of the deposited data

How the results depend on the processing

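No receptor with an unadjusted p under 0.05 changed sign in that comparison under any alternative tried. The number of receptors called in knockouts on water against control was 0, beside 1.21% of all genes. It became 2 with a pseudocount of 1 (Nr0b2, Nr4a1), where 1.32% of all genes were called. With a filter of 5 FPKM, under which 19 members were tested, or with TPM scaling it was 3 (those and Thra). Under these settings 2.69% and 1.94% of all genes were called. In knockouts on serine against control it was 1, beside 1.18% of all genes. It became 2 with a pseudocount of 0.1 (1.60% of all genes), 3 with a filter of 5 FPKM (6.20%) and 4 with TPM scaling (3.33%). It was 0 with no filter (0.0136%), median-of-ratios scaling (0.324%), no variance trend (0.0719%), the 4 compared libraries alone (0.0359%) or the replicate block (0.0359%). Fitting the mean of both knockout groups against control, an alternative chosen after seeing the data, called 5 of 31 (Nr4a1 2.17, Thra 0.81, Pparg 1.10, Nr0b2 -2.54 and Esrra 1.23, adjusted p from 0.0256 to 0.0403), where 5.85% of all genes were called. Receptors with an unadjusted p under 0.05 for serine in knockouts numbered 3, beside 7.23% of all genes, and 1 with TPM scaling, beside 6.53%.

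List genes called, counted over all lists, were 16 on water against control, 0 with no filter, 1 with no variance trend, 1 with the replicate block and 1 to 20 with a pool left out. On serine against control they were 16, then 0 with no filter, 30 with a filter of 5 FPKM, 28 with TPM scaling, 6 with median-of-ratios scaling, 1 with no variance trend, 0 with the 4 compared libraries alone, 1 with the replicate block and 0 to 15 with a pool left out. Of all genes, 1.21% were called on water in the main fit and 0.00909% with no filter. The share was 0.144% with no variance trend and 0.0359% with the replicate block. On serine it was 1.18% in the main fit, 0.0136% with no filter, 6.20% with a filter of 5 FPKM and 3.33% with TPM scaling. It was 0.324% with median-of-ratios scaling, 0.0719% with no variance trend, and 0.0359% with the 4 compared libraries alone or the replicate block. The list counts followed this share. Scaling by median of ratios moved the median of all genes on serine against control to 0.02, against 0.16, and TPM scaling to 0.24. The replicate numbers are shared between groups, but the labels do not say that they mark a batch. The replicate differences of the groups correlated by -0.20, 0.04 and 0.03, values that cannot show whether pools of the same number share a batch. With 2 pools a group, calls near the threshold rest on single pools. The cause of these changes was not tested.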
